A study of Mus musculus with 12 samples.

Results

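Regions of the heart transcriptome that carried an m6A peak in every aged mouse heart and in no young one were examined. The members were chosen by presence alone: peaks on the same chromosome and strand whose exon blocks shared at least 1 base were joined into regions across 6 peak lists, and a region was kept where all 3 aged hearts and none of the 3 young hearts had a peak. This gave 421 of 15699 regions (2.68%), in 398 genes. Because the calls in young and aged hearts chose the members, the absence of young peaks is a description and was not tested.

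The hearts came from male C57BL/6 mice, young (6 to 7 weeks) or aged (26 to 27 months), with 3 samples of each age numbered as replicates in the labels. Strain, sex and age are those of the study's methods. The p-value of a peak compares the antibody-bound library of a sample with its own input library and holds no spread between samples. Only the sign-flip p-values, explained below, use values of the numbered samples. Fragmented total RNA of each sample was split into an input library and a library of fragments bound by an antibody against m6A (MeRIP-seq), which makes 12 libraries. The methods also describe mixing 3 hearts of an age into a sample, and the sources used here do not settle whether a numbered sample of these lists is 1 heart or such a mix; "heart" below stands for a numbered sample. No gene was altered and no agent was given in these groups. Heart tissue was used, and the methods for these libraries do not name the part of the heart. A change in the mix of cells and a change within cells cannot be told apart.

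N6-methyladenosine (m6A) is a methyl mark on adenosines of mRNA and of long non-coding RNA. A writer complex built around Mettl3 and Mettl14 deposits it, largely within a short consensus that GGAC represents, the erasers Fto and Alkbh5 remove it, and readers such as the YTH proteins bind it and affect the splicing, translation and decay of the transcript. The mark is known for clustering near stop codons, in 3′ UTRs and in long internal exons.

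To show what the antibody-bound stretches look like, windows of 30 nt are given for a selection of the first 20 regions. Each is centred on the GGAC nearest to the middle of the stretch that the 3 aged peaks shared, with GGAC in capitals. Uqcc1 and other regions among the first 20 have such a window that is not shown. The first region of Xirp2 has none, because no base was common to its 3 peaks. Sequences are on the transcribed strand, 5′ to 3′, and were read from the GRCm38 assembly. The order of the regions is that of the weakest of their 3 ranks, explained below.
Actb, chr5:142905434-142905463, minus strand, coding: gaatgggtcagaaGGACtcctatgtgggtg
Gm26917, chr17:39846166-39846195, plus strand, non-coding gene: gacgggttttgtcGGACcccgacagggtcg
Capza2, chr6:17654114-17654143, plus strand, coding: cacagtataacctGGACcagtttacaccag
Myh7, chr14:54973913-54973942, minus strand, coding: acctgcggatggtGGACtccctgcagacct
Dnajc8, chr4:132544075-132544104, plus strand, coding: ctgacaaaaaccaGGACgatgctgacagag
Plpp3, chr4:105232173-105232202, plus strand, 3′ UTR: agacagtagacaaGGACccttctactgaac
Cfl1, chr19:5492771-5492800, plus strand, coding: agagcaagaaggaGGACctggtgttcatct
Pdk2, chr11:95027107-95027136, minus strand, around the stop codon: ccagccaccacagGGACcttccctatctat

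GGAC was not a condition of membership. At least 1 GGAC lay in 268 of the 421 regions (63.7%), and in the stretch shared by all 3 aged peaks of 191 regions (45.4%). Counted by aged peak, the share with a GGAC was 56.8% in the members. In other regions of all 3 aged hearts it was 58.1%, 59.9% and 67.4% where 1, 2 and 3 young hearts had a peak. Those peaks were longer on average. Of the first coding stretches that lay within 1 exon, those of Xirp2 and Ryr2 had no GGAC and that of Shank3 had 2; the region of Ryr2 as a whole, which is longer, held 2. Shank3 was chosen after its values were seen, as the first such stretch with GGAC. The stretches of Baz2a and Son, which are not shown, came before it and also had no GGAC.
Xirp2, chr2:67510017-67510137, plus strand, coding: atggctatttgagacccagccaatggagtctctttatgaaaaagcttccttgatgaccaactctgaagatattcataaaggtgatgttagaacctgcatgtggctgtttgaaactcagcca
Ryr2, chr13:11595686-11595776, minus strand, coding: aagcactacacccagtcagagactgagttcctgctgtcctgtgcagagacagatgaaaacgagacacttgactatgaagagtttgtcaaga
Shank3, chr15:89548516-89548785, plus strand, coding: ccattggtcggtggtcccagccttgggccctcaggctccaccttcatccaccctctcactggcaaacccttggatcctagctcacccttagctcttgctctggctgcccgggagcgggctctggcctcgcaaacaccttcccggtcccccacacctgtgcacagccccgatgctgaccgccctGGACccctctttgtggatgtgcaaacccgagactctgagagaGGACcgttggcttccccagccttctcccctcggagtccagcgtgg

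The lists of the aged hearts were longer. They held 9062, 9367 and 7284 peaks, against 6505, 5362 and 4114 in the young hearts, and no read counts came with the lists, so that the depth behind a missing peak is unknown. A missing peak means that none was called. The reverse pattern, a peak in all 3 young and no aged heart, was found for 7 regions (0.0446% of all regions). When each list was cut to its 4114 peaks of lowest p and the regions were joined again, 98 regions had peaks in the 3 aged hearts and no young one, 48 the reverse, and 61 of the 421 members remained. The number of members therefore moved with the number of peaks per list, and the part of list length in single members was not tested.

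Of the 3890 regions with a peak in all 3 aged hearts, 421 had no young peak (10.8%), 717 had a peak in 1 young heart, 1089 in 2 and 1663 in all 3. Just outside the rule, the 717 regions with a single young heart had it in young heart 1 in 412 cases, in young heart 2 in 209 and in young heart 3 in 96, the order of their list lengths. A further 1408 regions had peaks in 2 aged hearts and no young heart, and aged heart 3, which had the shortest aged list, lacked the peak in 722 of them.

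**Figure D1:**
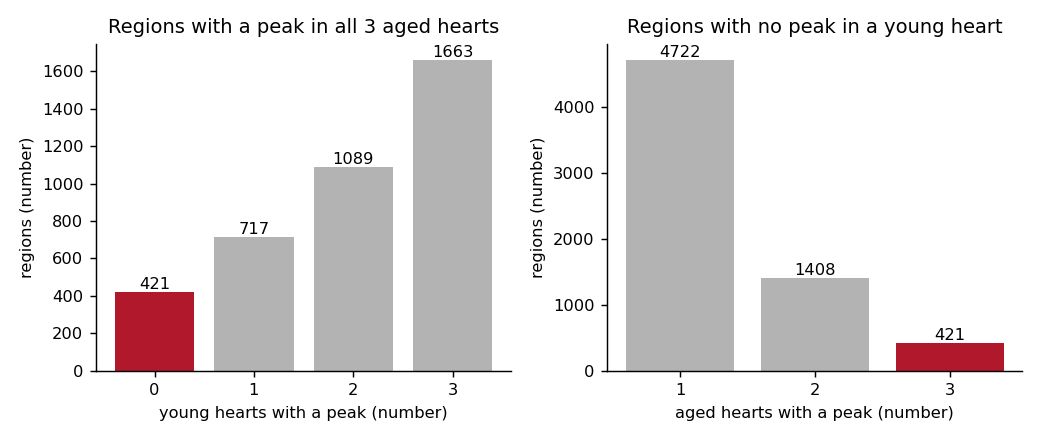
Number of regions (y axis) by the number of hearts with a peak (x axis). Left, regions with a peak in all 3 aged hearts by the number of young hearts; right, regions with no young peak by the number of aged hearts. The 421 regions of the rule are in red in both panels and are the smallest bar of each.

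The members were weaker peaks than regions shared with young hearts. The p-value that the peak caller gave to each aged peak had a median of 3.3e-06 in the members, 3.5e-08 where 1 young heart had a peak, 4e-12 where 2 had and 1e-30 where all 3 had. Ranked by p within its own heart's list (0% is the lowest p), the median member peak stood at 53.8% in aged heart 1, 51.8% in aged heart 2 and 62.5% in aged heart 3, and the median peak of regions called in all 6 hearts at 14.7%, 14.1% and 17.9%. Peak length followed the same order, with 211 ± 10.1 nt (SD, n = 3 aged hearts) in the members and 338 ± 5.78 nt in regions of all 6 hearts. Since the rule asked whether peaks passed the same p, these values describe the members, and no test is given for them.

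**Figure D2:**
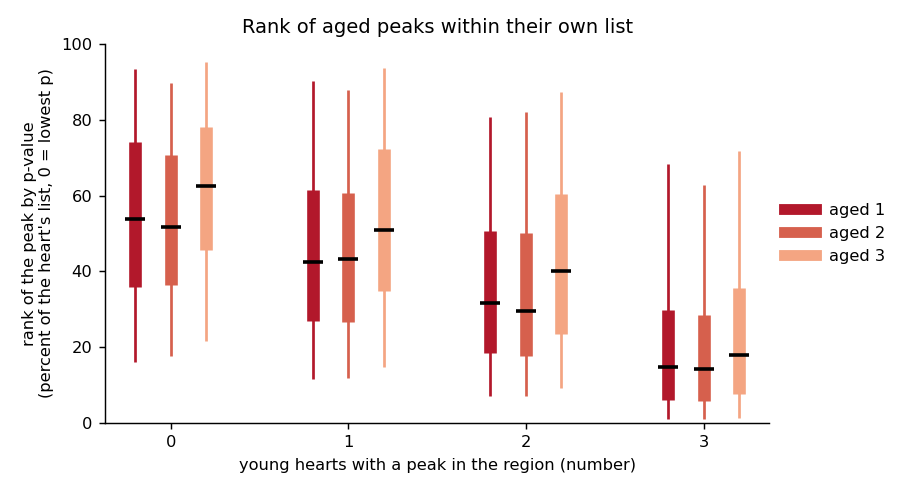
Rank of aged peaks by p-value within their heart's list (y axis, percent of the list) for regions of all 3 aged hearts, by the number of young hearts with a peak (x axis). Thick bars span the middle 50% of peaks, thin lines the 5th to 95th percentile and black marks the median. Members (0 young hearts) rank weakest in each aged heart.

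The 3 aged peaks of a member mostly covered the same bases. At least 1 base was common to all 3 in 411 of the 421 regions, with a median common stretch of 151 nt in a median region of 241 exonic nt. Peaks that share a base were joined, so such overlap follows largely from the rule and only describes the members. Peaks had p at or under 1e-05 in all 3 aged hearts in 113 members (26.8%). At the other end, the weakest of the 3 ranks was over 90% in 85 members. The last region in the order, in Apbb2, had p of 1.2e-04, 2.3e-09 and 0.042, the last close to the largest p of the lists, 0.05.

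The strongest members by their weakest rank were in Actb, Gm26917, Capza2, Myh7, Nipsnap2, Xirp2, Dnajc8, Uqcc1, Plpp3 and Oxa1l. The region of Actb, encoding the cytoskeletal beta-actin (chr5:142905239-142905715), had p of 5e-81, 1e-155 and 6.3e-75 in aged hearts 1, 2 and 3. Its peaks covered 417, 358 and 239 nt, and the nearest young peak of the gene lay 862 exonic nt away. That all 3 aged hearts and no young heart had a peak here follows from the rule, and the first place of Actb follows from the order by rank. In this region 18.2% of the bases lay outside the exons of all coding Actb transcripts, and a neighbouring member (chr5:142904882-142905180) lay wholly outside them.

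The region of Gm26917, a lincRNA gene (chr17:39846065-39846341), had p of 2.5e-47, 2.5e-55 and 5e-61. It ended 13 bases before Rn18s-rs5, a sequence related to 18S ribosomal RNA, so that reads of repeated copies may be shared and its value is uncertain. Capza2, encoding a subunit of the actin capping protein of the Z-disc (chr6:17637097-17656413, 5 exon blocks), had p of 2e-33, 1.3e-75 and 1e-34, and no young heart had any peak in the gene.

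Myh7 encodes the beta-myosin heavy chain, which the adult mouse ventricle expresses little. Its member region (chr14:54973848-54974957, coding) had p of 7.9e-60, 1.6e-74 and 2.5e-32. Young hearts did have peaks elsewhere in Myh7, with 5, 2 and 6 peaks, the nearest 478 exonic nt away. On the opposite strand the same bases held peaks of Mhrt, a long non-coding RNA antisense to Myh7, in 3 aged hearts and no young heart. The sources do not say whether the peak caller kept strand, so these peaks of Myh7 and Mhrt cannot be told apart.

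Nipsnap2 and Uqcc1, both encoding mitochondrial proteins, had no young peak anywhere. The p-values were 3.2e-34, 1.3e-63 and 2.5e-32 in Nipsnap2 (chr5:129725153-129744719) and 2e-28, 2.5e-90 and 3.2e-24 in Uqcc1 (chr2:155909379-155910639). Of the Uqcc1 region 52.1% lay outside the exons of coding transcripts. Oxa1l, the mitochondrial inner membrane insertase (chr14:54367275-54367641), had p of 3.2e-37, 6.3e-37 and 1.3e-19 and its nearest young peak 1226 nt away. The leading member of the 3′ UTRs was in Plpp3, a lipid phosphatase (chr4:105231960-105232317), with p of 3.2e-19, 2e-26 and 6.3e-25.

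Of the 398 genes with a member, 150 (37.7%) had no peak in any young heart, 58 (14.6%) had peaks in 1 young heart, 64 (16.1%) in 2 and 126 (31.7%) in all 3. Over all 5009 genes whose regions reached 2 or more hearts, these shares were 12.7%, 25.4%, 26.2% and 35.7%. The rule itself asks for a region without a young peak, so the higher share of genes with none is a description. In 83 genes the member was the only region of any list. A single region is common: the median was 1 region per gene over all genes and 2 in genes with a member. Among the 421 regions, 270 had a young peak in the same gene, at a median distance of 807 exonic nt (quartiles 299 and 1984.5 nt). The young peak lay within 200 nt in 43 regions (10.2%) and more than 1000 nt away in 112, and the nearest of all was 28 nt away.

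**Figure D3:**
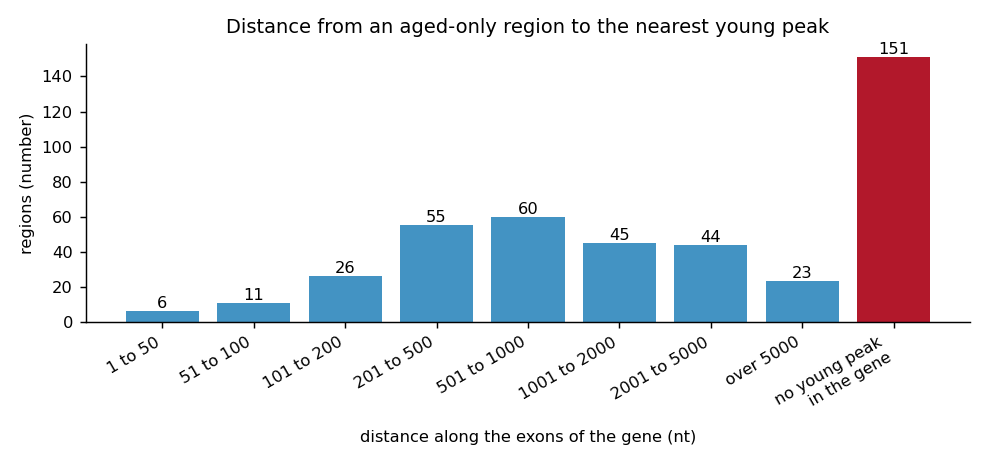
Number of members (y axis) by the distance along exons to the nearest young peak of the same gene (x axis, nt). The red bar holds the 151 members whose gene had no young peak; 112 of the others lay over 1000 nt from the nearest one.

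The first 5 members in genes with no young peak were in Capza2, Nipsnap2, Uqcc1, Cfl1 and Pdk2. Cfl1, the actin-severing cofilin (chr19:5492498-5493503), had p of 1.3e-29, 5e-23 and 3.2e-17. Pdk2, a kinase that inhibits pyruvate dehydrogenase, had 2 members and no other peak in any list. The region around its stop codon (chr11:95026974-95027874) had p of 3.2e-38, 1e-35 and 7.9e-14, and the coding one (chr11:95029385-95031837) had 7.9e-16, 1e-21 and 7.9e-11. Aifm1, the mitochondrial apoptosis-inducing factor, also had 2 members and no young peak.

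More than 1 member was found in 21 genes, and 6 of these had 3. In Xirp2, which encodes an actin-binding protein of cardiac cell junctions, the 3 members lay between or beside regions that young hearts also had: young hearts had 14, 10 and 13 peaks in the gene and aged hearts 15 each. The nearest young peaks were 29, 119 and 148 nt away. The strongest of the 3 (chr2:67516245-67516724) had p of 2.5e-28, 6.3e-34 and 3.2e-29, yet no base was common to its 3 peaks, which joined in a chain. In Kmt2d, a histone H3 lysine 4 methyltransferase, the 3 members lay 119, 209 and 539 nt from young peaks, among 7, 4 and 5 young peaks.

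Ppargc1b and Zmiz1 had fewer young peaks than these genes. Ppargc1b, a coactivator of mitochondrial genes, had 2, 1 and 0 young peaks against 4, 3 and 3 aged ones. Zmiz1, a transcriptional coregulator, had 2, 1 and 3 young peaks, with 2 members in the 3′ UTR and 1 outside its coding transcripts. Neat1, the non-coding RNA that scaffolds paraspeckles, had 3 members, with 4, 4 and 1 young peaks elsewhere in the transcript. The other 15 genes with 2 members were Actb, Add1, Aff1, Aifm1, Arid1a, Cacna1c, Cblb, Hivep2, Lrrc8a, Myh11, Nedd9, Pdk2, Phf20l1, Ppp1r12a and Suclg2.

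**Figure D4:**
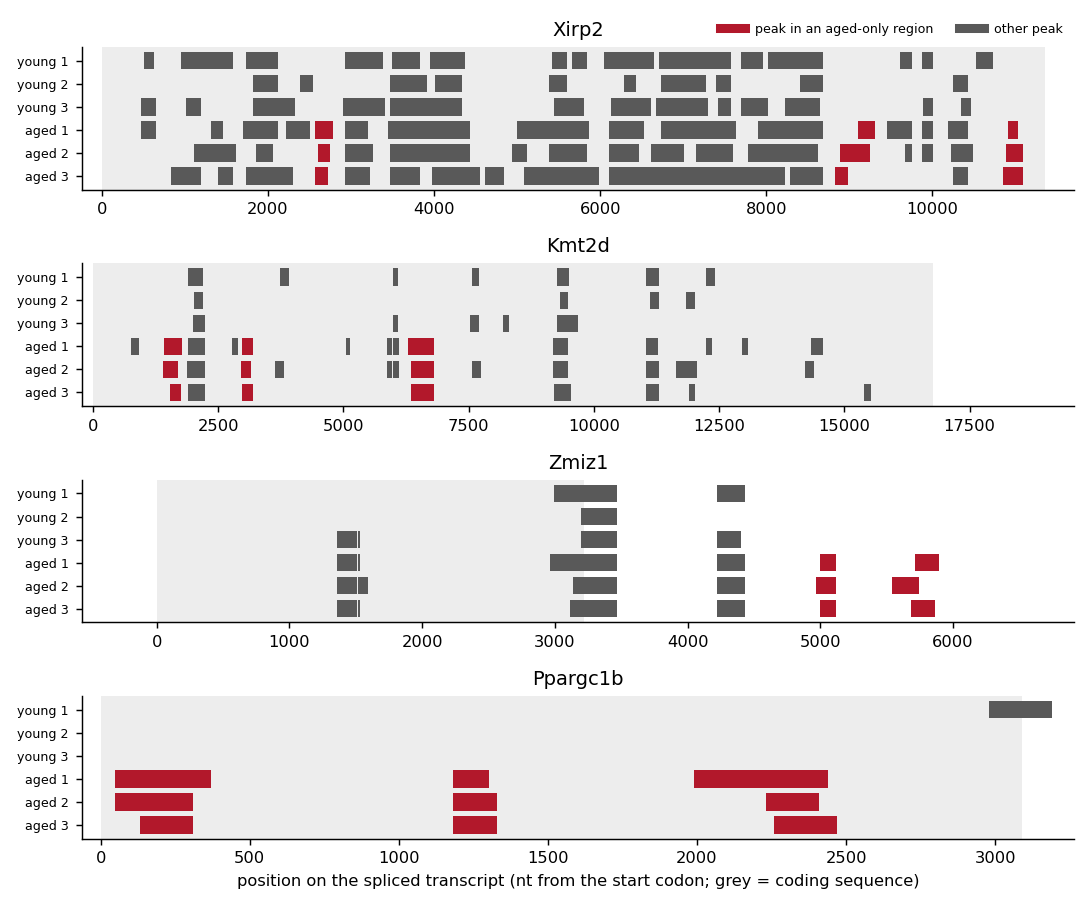
Peak blocks of each heart (rows) along the spliced transcript with the longest coding sequence (x axis, nt from the start codon) for 4 coding genes with 3 members; blocks that do not lie wholly on that transcript are not drawn. Red marks members and grey shading the coding sequence. In Xirp2 and Kmt2d the members sit among young peaks, and in Ppargc1b most of the transcript has none.

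Position on the transcript was not used by the rule. Each peak was placed by its exonic middle on the coding transcript with the longest coding sequence, and windows of 100 nt around the codons were counted as start and stop codon. In the 3 aged hearts, 5.64%, 6.36% and 6.29% of member peaks lay at the start codon, against 4.12%, 3.52% and 4.24% of peaks in regions of all 6 hearts. The difference was 2.14 ± 0.668 percentage points (SD, n = 3), with p = 0.25 by an exact test over all sign changes of the differences (two-sided), the smallest p that 3 hearts allow. At the stop codon the members had 2.67%, 3.03% and 3.59% against 5.53%, 5.18% and 4.63%, a difference of -2.02 ± 0.922 points (exact sign-flip p = 0.25). The 3 aged hearts place the same regions, so their spread covers where each heart set the edges of its peaks and not a new draw of regions, and the test cannot pass a threshold with 3 hearts. Over the peaks of all 3 aged hearts, regions with a peak in 1 young heart had 7.23% at the start codon, more than the 6.09% of the members, and 5.92% at the stop codon against 3.1%.

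The coding sequence held 72.3 ± 1.18% of member peaks and 71.8 ± 0.302% of shared ones, a difference of 0.54 ± 1.31 points (exact sign-flip p = 1) whose sign turned under 9 of the 13 other settings. The 3′ UTR held 16.8 ± 0.405% and 17.9 ± 0.149%, a difference of -1.12 ± 0.277 points (exact sign-flip p = 0.25) that became 3.27 points without aged heart 3. GGAC occurred 4.43 ± 0.124 times per kb in member peaks and 4.24 ± 0.107 times in shared ones, a difference of 0.18 ± 0.113 (exact sign-flip p = 0.25) that became -0.0367 without aged heart 3. Its reverse complement GTCC, which has the same GC content but not the same bases, differed in the same direction, by 0.15 ± 0.0804 per kb (exact sign-flip p = 0.25). The difference of the longer GGACT had the opposite sign, -0.103 per kb. The signs at the start and the stop codon held under all 13 settings, but not the sizes: the start codon difference was 0.667 points with windows of 50 nt and 3.24 without young heart 1, and the stop codon difference was -0.523 points without young heart 2 and -0.578 without young heart 1.

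**Figure D5:**
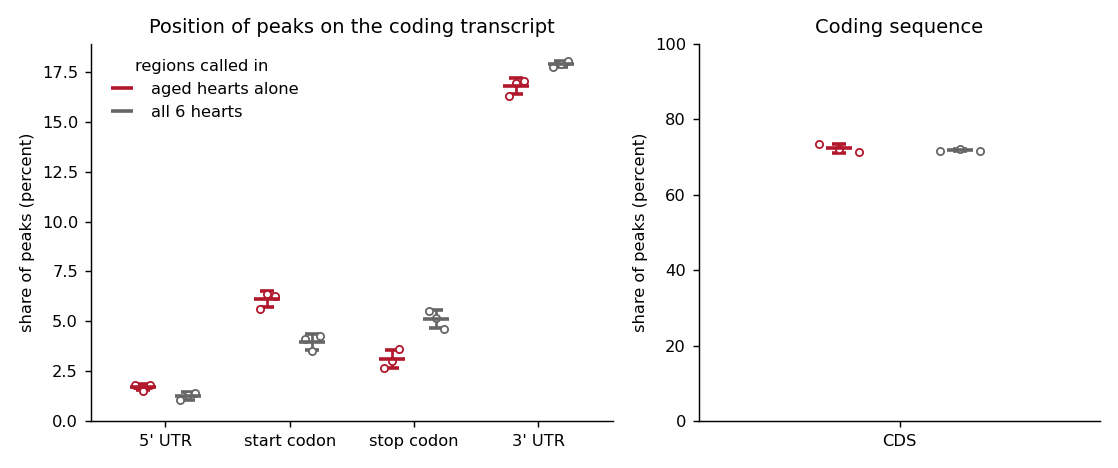
Share of peaks (y axis, percent) in 5 parts of the coding transcript (x axis) for members and for regions of all 6 hearts. Open points are the 3 aged hearts, lines their mean and error bars the SD. In each heart the share at start codons was higher and the share at stop codons lower in members than in regions of all 6 hearts; the 3 hearts place the same regions.

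By this placement the leading members at start codons were in Lnx1, Supt5, Zfp706, P4ha1 and Numb. Lnx1, a ubiquitin ligase, had p of 2e-13, 5.8e-09 and 9.5e-07 and no young peak in the gene. At stop codons the leading genes were Pdk2, Mxra7, Aff1, Bckdhb and Gpx3, in 3′ UTRs Plpp3, Xylt1, Hpcal1, 1110002E22Rik and Gnb1, and in 5′ UTRs Spg20, Msmp, Srgap2, Erc1 and Trib2.

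Some members held sequence that no coding transcript keeps. Among aged peaks in coding genes, at least 50% of the bases lay outside the exons of every coding transcript in 9.14%, 10.1% and 10.8% of member peaks, and in 6.24%, 5.74% and 6.15% of peaks in regions of all 6 hearts. The 3 member values lay above the 3 shared values, but the 3 hearts place the same regions and are not separate draws of regions. This measure was added after the Actb region had been seen, so it is given without a test. By region, 39 of 399 members in coding genes had at least 50% of their bases outside coding exons and 8 were wholly outside. Among these 8 were regions of Actb, Zmiz1, Tnnt2 and Cxcl12.

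Long non-coding genes held 18 members (4.28%), against 53 of the 1663 regions of all 6 hearts (3.19%). The first were Gm26917, Neat1, D830005E20Rik, Gm26889 and Gm20463. Strand limits these: 24 members shared bases with a peak on the other strand, among them 5 of the 8 in antisense genes, and 5 pairs of members covered the same bases on opposite strands (Svep1 and Gm26889, Rnf5 and Gm20463, Rgp1 and Msmp, Slc26a10 and B4galnt1, Rtca and Gm26530). Whether the peak caller kept strand is not given in the sources used here, so the members of such a pair cannot be told apart. The share of regions with a peak on the other strand was 5.7% in the members and 4.57% in regions of all 6 hearts. These pairs were looked for after the values had been seen.

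Gene groups were read against the 5009 genes whose regions reached 2 or more hearts, 398 of them (7.95%) with a member, and against the 10.8% of regions of all 3 aged hearts that had no young peak. No group was tested. Of the extracellular matrix genes 10 of 45 had a member, and of their regions of all 3 aged hearts 10 of 44 (22.7%) had no young peak. They were Thbs1, Col5a1, Col1a1, Lama4, Vcan, Tnxb, Col15a1, Lama2, Fn1 and Lama5. The region of Thbs1, encoding the matrix glycoprotein thrombospondin 1 (chr2:118113213-118113483), had p of 1.3e-07, 5e-11 and 1.3e-42 and no young peak in the gene. Col1a1, a chain of type I collagen, had p of 1e-19, 2.8e-05 and 6.5e-10.

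Of the actin and microtubule genes 13 of 55 had a member (15 of 93 regions, 16.1%), led by Actb, Cfl1, Myl12a, Sptbn1, Dync1h1 and Myh11. Of the chromatin and transcription genes 12 of 67 had a member (18 of 117 regions, 15.4%), among them Arid1a, Kmt2d, Setd2, Phf20l1 and Kmt2a. Arid1a, a subunit of the SWI/SNF remodeller, had 2 members, the first (chr4:133681734-133684503) with p of 7.9e-11, 4e-16 and 1e-14. Genes of these groups had a median of 2 and 3 regions each, against a median of 1 over all genes.

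The remaining groups lay on both sides of the background. The sarcomere had 6 of 42 genes but 8 of 102 regions (7.84%), in Capza2, Myh7, Xirp2, Capza1, Tnnt2 and Tpm2. Mitochondria and energy metabolism had 5 of 57 genes and 8 of 44 regions (18.2%), in Nipsnap2, Fh1, Pdk2, Ppargc1b and Hadhb, where Pdk2 and Ppargc1b gave 5 of the regions. Calcium handling had 3 of 36 genes (Ryr2, Cacna1c and Asph), protein folding and ubiquitin 9 of 64, translation 4 of 41, membrane traffic 5 of 44, splicing 4 of 60, cell junctions 3 of 26, TGF-beta, BMP and Wnt signalling 2 of 28, hypertrophy 2 of 22, heart transcription factors 1 of 25, senescence and cell cycle 1 of 19 and insulin signalling 1 of 37.

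No member lay in the 5 writer, 2 eraser and 5 reader genes of m6A whose regions reached 2 or more hearts. These genes had only 3, 0 and 3 regions of all 3 aged hearts. With 10.8% of such regions being members over all genes, that is too few to read the absence as a result. Mettl3 and Mettl14 had no peak in any heart, and Zc3h13, a writer subunit, had peaks in all 6. Snhg11, a host gene of small nucleolar RNAs, had a member (chr2:158383694-158383933) with p of 1.6e-11, 6.3e-29 and 3e-06. Efemp1, encoding the matrix protein fibulin-3, lay just outside the rule: aged hearts 1 and 2 had the same 240 nt peak, with p of 3.2e-07 and 2e-16, and aged heart 3 and the young hearts had none.

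The labelled tissue carried the transcripts of heart cells. Peaks were found in at least 1 heart in all 8 cardiomyocyte marker genes and in all 6 hearts in 5 of them. Together these genes had 84, 107 and 76 peaks in aged hearts and 88, 51 and 80 in young hearts. Most were in Ttn alone, with 62, 79 and 62 in aged and 72, 43 and 65 in young hearts. The endothelial markers had 31, 29 and 23 peaks in aged hearts against 15, 14 and 8 in young hearts, and the fibroblast markers 7, 5 and 5 against 2, 1 and 1. The smooth muscle and pericyte markers had 13, 14 and 16 against 8, 6 and 3, and the immune markers 2, 1 and 3 against 0, 1 and 1. The whole lists were longer in aged hearts too, with 9062, 9367 and 7284 peaks against 6505, 5362 and 4114. Marker counts were not tested against list length. Of the regions of all 3 aged hearts, 10.8% were members. In cardiomyocyte markers 2 of 46 such regions were members (4.35%, in Ryr2 and Tnnt2), and in endothelial markers 2 of 16 (12.5%, in Flt1 and Cdh5). In fibroblast markers it was 1 of 2 (Col1a1), in smooth muscle and pericyte markers 2 of 8 (both in Myh11) and in immune markers 0 of 1. The part of cell mix in these regions was not tested. The member in Tnnt2 lay wholly outside the exons of coding transcripts. Adipocyte markers had no peak, and Schwann cell markers had 1 in a single aged and a single young heart.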

How the data were processed

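The authors deposited 1 list of m6A peaks per sample, each peak with its exon blocks and an unadjusted p-value. Per the labels and the study's methods, reads were trimmed with cutadapt 2.5 and aligned to GRCm38 with HISAT2 2.1.0, and exomePeak compared each immunoprecipitate with its input. The deposited p-values reached 0.05. The lists hold no counts, so depth is unknown and no interval was formed. Motif output of HOMER 4.10.4 was not used.

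Peaks were joined in Python 3.11.15 where exon blocks shared 1 base. Gene identifiers were named through GENCODE M21 (7081 of 7088 found; all 398 of the members), and sequence was read from RefSeq's GRCm38.p6. Start and stop codon windows were 100 nt. Shares and motif rates of the 3 aged hearts were compared by a two-sided exact sign-flip test. Joining, placement, motif counts and the sign-flip test were tested on simulated data.

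The members and gene lists were chosen with earlier results of these data known. Genes were named by the weakest of the 3 ranks: the first 10, the first 5 with no young peak, per transcript part and in lncRNA genes, genes with several members, and genes of the lists; Apbb2, Shank3, Mhrt and the opposite-strand pairs were named after their values were seen. A gene that the rule names is not reported here. Alternatives were p at or under 1e-05, 4114 best peaks per list, a 50% overlap, each heart left out, 2 aged hearts, and other windows, motifs and distances.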

Additional observations from a re-analysis of the deposited data

How the results depend on the processing

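The number of regions meeting the rule was 260 with p at or under 1e-05 (113 of the 421 members among them), 98 with the 4114 best peaks per heart (61 of the 421), 1829 with at least 2 aged hearts, and 517 to 1156 with 1 heart left out. Their share of the regions of the aged hearts was 4.62% with equal lists, 25.7% with 2 aged hearts and 13.3% to 21.5% with 1 heart left out. Genes with no young peak made up 45.3% with p at or under 1e-05, 31.2% with equal lists and 37% to 42.8% with 1 heart left out. A young peak lay near 14.3% of members with equal lists, 4.04% within 100 nt, 23.3% within 500 nt and 7.13% to 11% with 1 heart left out. The difference in coding share was -1.65 points with p at or under 1e-05, -3.39 with 2 aged hearts, -0.00966 with codon windows of 200 nt, -0.86 on any coding transcript that held the middle of the peak (chosen after seeing the data), and -4.01 to 5.32 with 1 heart left out. The difference in 3′ UTR share was 1.79 points with 2 aged hearts and -5.99 to 3.27 with 1 heart left out, and that in GGAC was -0.103 per kb for GGACT and -0.0367 to 0.434 with 1 heart left out. The causes were not tested. Start and stop codon differences kept their sign, at 1.76 to 3.24 and -1.8 to -0.523 points with 1 heart left out, and 0.667 and -0.837 with codon windows of 50 nt. No paired analysis was possible because no test compared young with aged hearts, which share only replicate numbers; the tests given pair sets of peaks within 1 heart. Without read counts, a missing young peak cannot be told apart from one below the caller's threshold.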
